A study of Mus musculus with 7 samples.

Results

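The genes described here are 48 genes of the cell cycle and of DNA replication, chosen by name from the 24084 gene symbols of a count table, in regulatory T cells (Tregs) from mouse skin and skin-draining lymph nodes. Tregs are the CD4 T cells whose identity rests on the transcription factor Foxp3. The 48 were divided by role into 14 replication genes of S phase, 22 genes of G2 and mitosis (the mitotic class), 9 genes of G1 and the G1/S transition, and 3 brakes on the cycle. All 48 were found in the table, and all 48 passed the filter on low counts. The libraries came from Foxp3-DTR mice aged 6 weeks, in which Foxp3 drives the diphtheria toxin receptor and green fluorescent protein, and both tissues carried this allele. There were 3 libraries from skin-draining lymph nodes (SDLN) and 4 from telogen skin, in which hair follicles rest. No treatment is named, and neither the sort gates nor the animals behind each library are given here. Where libraries do not come from separate animals, the p-values measure only the spread between these libraries.

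A cell enters the cycle when D-type cyclins with Cdk4 or Cdk6, and then cyclin E with Cdk2, inactivate the retinoblastoma protein Rb1 and its relatives and so free the E2F factors. E2F factors switch on replication genes, whereas genes of G2 and mitosis are switched on later by the B-MYB and FOXM1 complexes through a promoter element called CHR, often beside CCAAT boxes. Most Tregs of a resting lymph node are quiescent, and a minority divides at any time. Transcript levels of the mitotic class are widely read as a proliferation score.

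The promoters below are shown because the replication and mitotic classes differ in these elements. RefSeq promoter windows (build GRCm38.p6, 250 bases before to 50 after a start) were at hand for 39 of the 48 members, with 43 windows, since 4 members have 2. The motifs were searched on both strands: CHR as TTTGAA or TTCGAA, the CCAAT box as CCAAT, and E2F as TTTGGCGC or TTTCGCGC. No motif contains another, but 2 E2F matches can share bases. A CHR match stood in 13 of 17 windows of the mitotic class (76.5%), 3 of 14 of the replication class (21.4%) and 19.2% of all 32851 windows. An E2F match stood in 1 of 17 windows of the mitotic class (5.88%), 5 of 14 of the replication class (35.7%) and 0.813% of all windows. CCAAT boxes were in 15 of 17 mitotic windows (88.2%), 10 of 14 replication windows (71.4%) and 37.4% of all windows. A match is a run of letters and was not tested as a binding site. The stretches printed run from 250 bases before to 30 after the start, 5′ to 3′, with every match in capitals. That start is RefSeq's, and the gene positions given further on are GENCODE's. GENCODE starts Top2a and Racgap1 at the same base, but Mki67 18 and Mcm6 41 bases further downstream, so the printed stretch of Mcm6 lies wholly before its GENCODE start. The stretches are Mcm6 at chr1:128359676-128359955, Top2a at chr11:99024160-99024439, Racgap1 at chr15:99651627-99651906 and Mki67 at chr7:135716350-135716629, all on the minus strand.
Mcm6: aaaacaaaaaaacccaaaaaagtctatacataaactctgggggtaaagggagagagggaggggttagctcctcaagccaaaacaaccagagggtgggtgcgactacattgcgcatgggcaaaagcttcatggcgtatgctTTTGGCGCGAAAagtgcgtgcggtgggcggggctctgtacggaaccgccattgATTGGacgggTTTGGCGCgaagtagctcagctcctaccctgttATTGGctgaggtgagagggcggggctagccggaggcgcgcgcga
Top2a: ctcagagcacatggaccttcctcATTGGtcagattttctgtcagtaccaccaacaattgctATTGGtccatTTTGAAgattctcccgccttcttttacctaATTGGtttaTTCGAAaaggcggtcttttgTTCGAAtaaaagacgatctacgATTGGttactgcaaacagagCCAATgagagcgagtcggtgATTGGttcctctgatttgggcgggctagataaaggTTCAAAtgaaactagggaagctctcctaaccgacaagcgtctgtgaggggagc
Racgap1: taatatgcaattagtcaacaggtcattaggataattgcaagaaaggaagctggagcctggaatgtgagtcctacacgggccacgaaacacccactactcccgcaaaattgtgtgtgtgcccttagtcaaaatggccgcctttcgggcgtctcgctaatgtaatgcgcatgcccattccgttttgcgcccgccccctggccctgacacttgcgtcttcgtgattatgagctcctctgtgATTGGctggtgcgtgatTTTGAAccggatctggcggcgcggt
Mki67: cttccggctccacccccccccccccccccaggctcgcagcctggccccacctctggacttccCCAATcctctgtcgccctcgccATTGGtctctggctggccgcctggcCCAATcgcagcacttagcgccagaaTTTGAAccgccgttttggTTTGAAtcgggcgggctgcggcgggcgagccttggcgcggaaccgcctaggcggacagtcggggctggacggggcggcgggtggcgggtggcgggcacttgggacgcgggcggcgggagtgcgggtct

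Within the printed stretches, Mcm6 had 3 E2F and 2 CCAAT matches and no CHR match, and 2 of its E2F matches overlap. Top2a had 4 CHR and 6 CCAAT matches, Racgap1 had 1 of each, and Mki67 had 2 CHR and 3 CCAAT matches. None of the 3 mitotic genes had an E2F match there. Mcm6, Top2a and Racgap1 were among the members that rose in skin. Cdt1, the fourth, had 1 E2F match, in the last bases of its window, and neither of the other motifs.

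Each library held between 11009609 and 14785751 counts on genes. Genes with at least 1 count numbered 13408 to 13845 in SDLN and 9690 to 12639 in skin. All 48 members had counts in every SDLN library, and 36, 36, 47 and 47 of them had counts in skin 1 to 4. The T cell and Treg markers summed to 8298 to 9979 CPM (counts of a gene per 1000000 counts, on TMM-scaled library sizes) in SDLN. In skin they summed to 7899 to 12539 CPM, with Foxp3 and Cd3e present in every library. Within this sum Ctla4, Ikzf2 and Foxp3 were higher in each skin library than in each SDLN library. Cd3e, Cd3d and Cd4 were lower in each, and Cd3g and Il2ra overlapped. Cd3e was at 1678, 1662 and 2203 CPM in SDLN and at 1112, 560, 606 and 1248 CPM in skin. Ctla4 was at 584, 566 and 802 CPM in SDLN and at 3814, 4448, 2611 and 4406 CPM in skin. Skin 3 stood apart, with 1361 CPM of keratinocyte markers and 2010 CPM of fibroblast markers, against at most 20.7 and 8.93 CPM in any other library. The 11 measured markers of macrophages, monocytes and dendritic cells summed to 15.7 to 22.4 CPM in SDLN and 164 to 952 CPM in skin, highest in skin 4. Of those 11, 2 were called higher in skin, and Cd207, the Langerhans cell marker, was at 0 in every library. Among the same 11, Itgax and Emr1, defining markers of dendritic cells and macrophages, were at 22.0 and 44.7 CPM in skin 4. Both were at or under 0.0920 CPM in skin 1 to 3, where Itgam was at 0. Others of the 11 did have counts in those libraries. Lyz2 was at 68.2, 175 and 63.5 CPM and Mgl2 at 68.6, 62.1 and 16.7 CPM in skin 1 to 3. In SDLN, Lyz2 was at 8.08 to 15.4 CPM and Mgl2 at most at 0.0772 CPM. Csf1r was at 80.7 and 27.4 CPM in skin 1 and skin 3, at 0 in skin 2 and at 0.785 CPM in skin 4. A tissue characteristic of skin 1 reads as lymph node, although its title and source name say skin. SDLN 3 had 3877 counts of the Y-linked gene Ddx3y, and no other library had more than 2, so the sexes of the animals differed. Calls of members that are lost or gained when skin 1, skin 3, skin 4 or SDLN 3 is left out are given with the results below. For other cell cycle genes, lost calls and the numbers called are given, but genes gained are not named.

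Of the 48 members, 4 rose in skin and 0 fell, and 44 did not pass edgeR's quasi-likelihood test at an adjusted p of 0.05. The 4 that rose were Mcm6 and Cdt1 of the replication class and Top2a and Racgap1 of the mitotic class. That is 8.33% of the members, beside 7.24% of all 11376 genes tested that passed in either direction, so the share called is close to the background. Over all genes, 3.28% passed as higher and 3.96% as lower in skin. At an unadjusted p under 0.05, 8 members were higher and 0 lower, against 10% and 8.52% of all genes. DESeq2 called 8 higher and 0 lower, against 8.11% and 4.46% of all genes, and limma-voom called 3 higher and 0 lower, against 2.38% and 6.41%. Without skin 4, 2 members were higher and 1 was lower, and without any 1 SDLN library 0 members were called. The fitted log2 fold change (skin over SDLN) had a median of 0.67 over the members and 0.05 over all genes tested. The tissues did not overlap for 9 members (18.75%), against 26.6% of all genes. Of those 9, 8 were higher in skin and 1, Plk1, was lower, where 10.1% of all genes were higher without overlap and 16.5% lower. In bulk libraries, more cells in a phase of the cycle and more transcript per cell cannot be told apart.

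**Figure D1:**
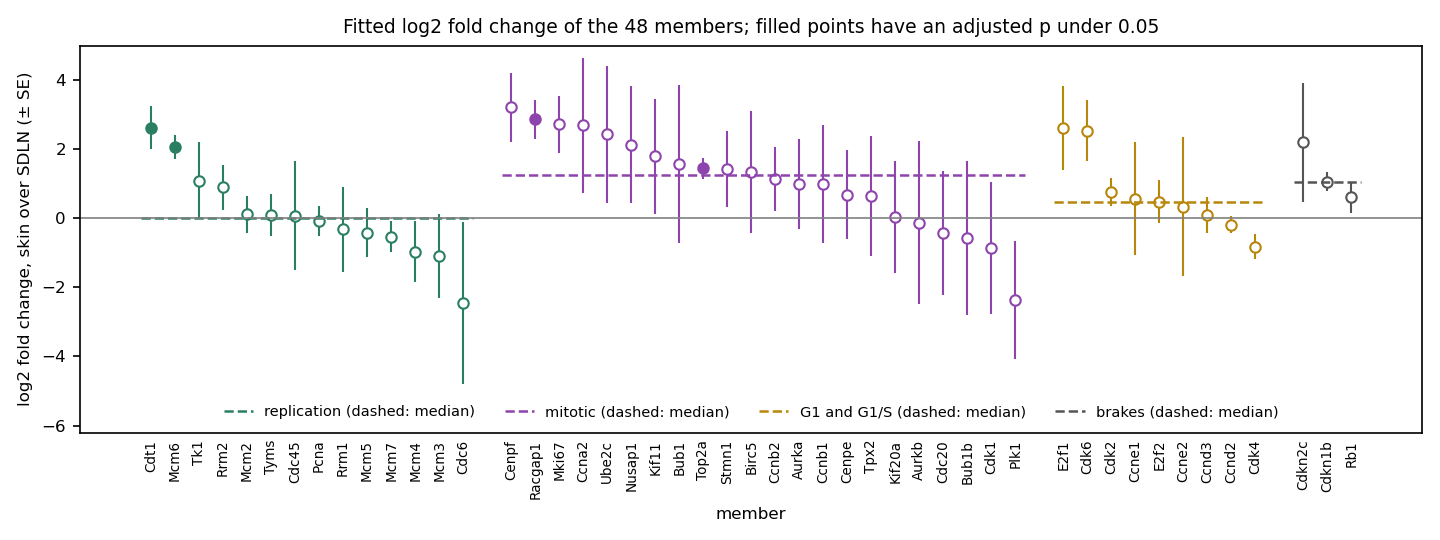
Fitted log2 fold change of each member (vertical axis, skin over SDLN, bars ± SE), ordered within its class along the horizontal axis; filled points have an edgeR adjusted p under 0.05. Of the 48 points 4 are filled, and the dashed class medians stand at 0.00 for replication, 1.24 for mitotic, 0.47 for G1 and G1/S and 1.06 for brakes.

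The mitotic class stood higher in skin as a sum, while the replication class did not. Summed over its 22 genes, the mitotic class was at 201, 228 and 268 CPM in SDLN 1 to 3 and at 431, 608, 806 and 958 CPM in skin 1 to 4. Each skin library was above each SDLN library, with means of 233 ± 33.5 (SD, n = 3) and 701 ± 230 CPM (SD, n = 4), a ratio of 3.01. The replication class summed to 1189, 1183 and 1080 CPM in SDLN and to 1251, 515, 1380 and 1108 CPM in skin. Here the tissues overlapped, with means of 1151 ± 61.3 (SD, n = 3) and 1064 ± 382 CPM (SD, n = 4), and skin 2 was the low library. The mitotic sum was thus 16.9%, 19.3% and 24.8% of the replication sum in SDLN and 34.5%, 118%, 58.4% and 86.5% of it in skin. No p is given for these sums, because the members were chosen with results of these data known. Markers of macrophages, monocytes and dendritic cells were also higher in each skin library than in each SDLN library, and their part in the mitotic sum was not tested. Nor was that of the keratinocyte and fibroblast transcripts of skin 3, whose markers summed to 1361 and 2010 CPM. The log2 ratio of the mitotic sums was 1.59 with all libraries, 1.77 without skin 1, 1.52 without skin 3, 1.38 without skin 4 and 1.69 without SDLN 3.

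**Figure D2:**
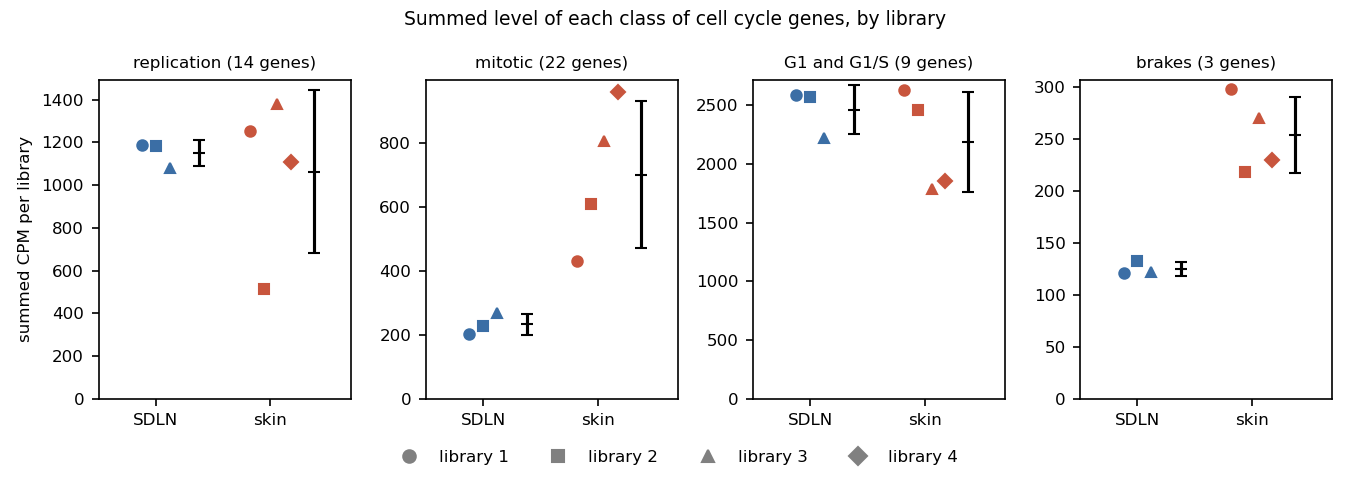
Summed CPM per library (vertical axes, each from 0) for the 4 classes, by tissue; symbols are libraries numbered within each tissue, with no pairing meant, and bars are mean ± SD. The mitotic sums of skin, 431 to 958 CPM, lie above those of SDLN, 201 to 268 CPM, whereas the replication sums overlap.

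A few genes carried much of the mitotic sum. Mki67, which encodes the surface protein of mitotic chromosomes Ki-67, and Top2a, the DNA topoisomerase that untangles sister chromatids, made up 39.4% to 42.7% of it in SDLN and 36.2%, 56.9%, 58.1% and 57.2% in skin 1 to 4. Without these genes the class still summed to 122 to 157 CPM in SDLN and 262 to 410 CPM in skin, with no overlap. Detection went the other way, since 9, 9, 1 and 0 of the 22 mitotic genes had no count in skin 1 to 4. Of the 22 genes, 8, 8, 14 and 19 were above the SDLN range in skin 1 to 4, and 11, 12, 6 and 2 were below it. For all genes tested, 35.1% to 41.3% were above and 44.6% to 54.2% below that range in a skin library. Skin 3 and skin 4 therefore had mitotic genes broadly above the SDLN range. Skin 1 and skin 2 had more of them below the range than above it, but the same held for all genes tested. Of all genes, 35.1% were above and 54.2% below the range in skin 1, and 36.6% and 53.4% in skin 2. The excess below the range in those libraries is thus not shown to be a trait of the mitotic class.

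Top2a rose in skin. It was at 59.3, 69.1 and 68.4 CPM in SDLN 1 to 3 and at 132, 181, 158 and 241 CPM in skin 1 to 4. The lowest skin library was above the highest SDLN library, and the fitted fold was 2.72 (log2 fold change 1.44, SE 0.31, edgeR adjusted p = 0.0380). The gene is protein-coding, at chromosome 11, 98992943 to 99024189 (GENCODE, GRCm38, the mm10 build). Without skin 4, Top2a did not pass (adjusted p = 0.0547), nor did it without the low-count filter (0.0951).

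Racgap1 rose as well. It encodes a GTPase-activating subunit of centralspindlin, the complex that bundles the midzone microtubules at cytokinesis. Its levels were 6.58, 9.39 and 8.80 CPM in SDLN and 82.0, 61.4, 58.1 and 38.9 CPM in skin. All 4 skin libraries lay well above SDLN (fitted fold 7.27, log2 fold change 2.86, SE 0.57, edgeR adjusted p = 0.0380). The gene lies at chromosome 15, 99620496 to 99651656. Kif23, the kinesin subunit of the same complex and no member of the 48, rose by a like amount, at 11.3, 8.70 and 10.4 CPM in SDLN and 82.0, 53.9, 80.3 and 72.8 CPM in skin (skin over SDLN 2.83 on the log2 scale, SE 0.48, edgeR adjusted p = 0.0204).

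Mki67 did not pass the test. It was at 20.1, 28.5 and 42.9 CPM in SDLN and at 23.7, 165, 311 and 307 CPM in skin (log2 fold change 2.72, SE 0.82, edgeR adjusted p = 0.106). Skin 1 lay inside the SDLN range while the other skin libraries were far above it. Without skin 1, Mki67 passed (adjusted p = 0.0162), and with DESeq2 it passed on all libraries (0.00460). Cenpf, a large kinetochore and nuclear envelope protein, did not overlap between the tissues but did not pass either. Its levels were 2.31, 2.28 and 6.49 CPM in SDLN and 22.1, 76.9, 15.6 and 22.5 CPM in skin (log2 fold change 3.21, SE 0.997, edgeR adjusted p = 0.113), with skin 2 far above the rest. Without skin 2 its log2 fold change was 2.42.

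The mitotic members Aurkb, Bub1b and Cdk1 were uneven between skin libraries. Aurkb, the kinase of the chromosomal passenger complex, was at 5.63, 8.08 and 7.80 CPM in SDLN and had no count in skin 1 and skin 2, 1 count (0.0881 CPM) in skin 3 and 26.0 CPM in skin 4. Bub1b, a spindle checkpoint protein, was at 19.4, 14.2 and 13.1 CPM in SDLN, at 0 in skin 1 and skin 2, at 0.529 CPM in skin 3 and at 41.2 CPM in skin 4. Cdk1, the mitotic kinase, was at 7.53, 5.18 and 14.8 CPM in SDLN and at 0, 0.324, 1.15 and 18.8 CPM in skin. For these 3 genes skin 4 was above SDLN and the other skin libraries were below it, and none passed. Without skin 4, 1 count of Aurkb was left in skin and the fit called it lower (adjusted p = 0.0415), while Bub1b and Cdk1 did not pass (0.130 and 0.234). A count of 3, the limit set by seeing none, stood for 0.214 to 0.276 CPM in a skin library. That limit covers counting error alone. Skin 1 and skin 2 had no count for 19.5% and 17.7% of all genes tested, and losses before sequencing were not tested. The zeros therefore do not show how far the cells lay under the SDLN levels. Plk1, the polo-like kinase that drives mitotic entry, was lower in each skin library, at 1.83, 3.04 and 4.71 CPM in SDLN and 0, 0, 0.705 and 1.71 CPM in skin, but did not pass (log2 fold change -2.38, SE 1.71, edgeR adjusted p = 0.559).

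The remaining mitotic members did not pass. They were the cyclins Ccna2, Ccnb1 and Ccnb2, the anaphase-promoting complex partners Cdc20 and Ube2c, the passenger subunit Birc5, the spindle kinase Aurka and its activator Tpx2, the checkpoint kinase Bub1, the kinesins Kif11, Kif20a and Cenpe, and the microtubule proteins Nusap1 and Stmn1. Nusap1 shows their spread, at 4.68 to 8.88 CPM in SDLN and at 0, 76.2, 30.1 and 23.6 CPM in skin. Kif11, the kinesin that pushes spindle poles apart, was at 5.63 to 7.80 CPM in SDLN and at 27.2, 0, 22.8 and 39.8 CPM in skin, so skin 2 alone was low. Kif20a, a kinesin of late mitosis, went the other way between libraries, at 12.6 to 24.6 CPM in SDLN and at 47.7, 4.04, 0 and 24.8 CPM in skin.

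Within skin, the libraries differed in which mitotic genes they held. Aurka was at 5.79 to 7.59 CPM in SDLN and at 38.2, 9.46, 2.20 and 2.496 CPM in skin, highest in skin 1. Its activator Tpx2 was at 8.08 to 11.97 CPM in SDLN and at 3.22, 0, 47.2 and 15.1 CPM in skin, highest in skin 3. Birc5 was at 4.82 to 12.5 CPM in SDLN and at 6.26, 0, 17.5 and 54.5 CPM in skin, highest in skin 4, as was its partner Aurkb. The cyclins were split as well. Ccnb1 was highest in skin 1, at 10.3 CPM against 1.09 to 2.14 CPM in SDLN. Ccna2, which acts from S phase to mitosis, was highest in skin 3, at 27.3 CPM against 0.678 to 2.55 CPM in SDLN. Ccnb2 had counts in every library, at 6.78 to 8.34 CPM in SDLN and at 22.1, 7.77, 26.4 and 12.6 CPM in skin. No skin library was the highest for all of these genes. Over the class, the coefficient of variation (SD over mean) had a median of 0.322 in SDLN and 1.196 in skin, against 0.187 and 0.750 over all genes tested. The median log2 fold change of the 22 genes was 1.24, with 17 fitted above 0 and 5 below. With limma-voom it was -0.11, with 9 above and 13 below, where the median of all genes was -0.62. With a replicate block on 6 libraries it was -0.45, where that of all genes was -0.55.

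**Figure D3:**
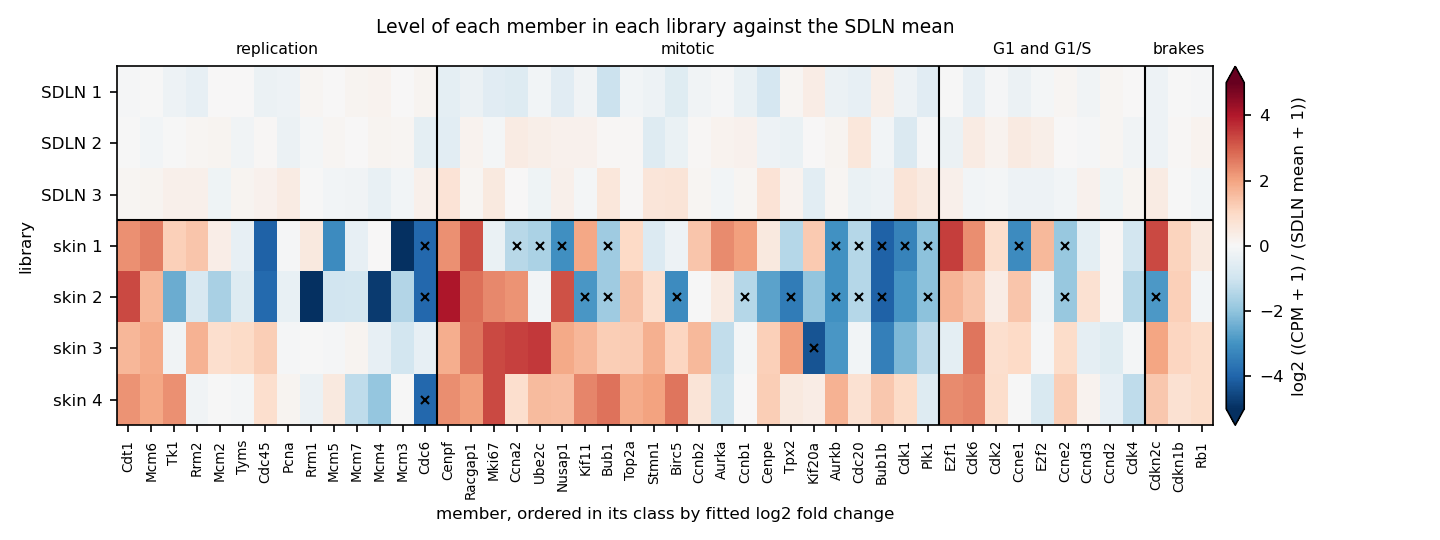
Level of each of the 48 members (horizontal axis, by class) in each library (vertical axis), as log2 of CPM plus 1 over the SDLN mean plus 1; colours saturate at 5 in size and a cross marks a count of 0. The SDLN rows are nearly uniform, whereas skin 1 and skin 2 each carry 12 crosses and skin 3 and skin 4 carry 1 each.

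In the replication class, Cdt1 and Mcm6 of the helicase loading step rose, and the other genes of that step did not pass. Licensing loads the MCM helicase, a ring of Mcm2 to Mcm7, onto origins with the help of Cdc6 and Cdt1. Cdt1 rose, at 9.23, 9.39 and 10.3 CPM in SDLN and 50.6, 105, 32.8 and 49.8 CPM in skin. Its skin libraries all lay above SDLN, with a fitted fold of 6.15 (log2 fold change 2.62, SE 0.62, edgeR adjusted p = 0.0423). The gene lies at chromosome 8, 122568015 to 122573554. Without skin 4 the adjusted p was 0.0625, with limma-voom it was 0.129 and without the low-count filter it was 0.120. Its partner Cdc6 had 15.7, 10.01 and 17.2 CPM in SDLN, 10.4 CPM in skin 3 and no count in the other skin libraries (log2 fold change -2.46, SE 2.35, edgeR adjusted p = 0.691). Without skin 3, the library with keratinocyte and fibroblast transcripts, no count of Cdc6 was left in skin, and the call as lower in that fit (adjusted p = 0.0279) is against libraries at 0.

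Mcm6 rose, and the other helicase subunits did not pass. Mcm6 was at 36.5, 33.2 and 41.2 CPM in SDLN and at 220.4, 119, 138 and 144 CPM in skin, with no overlap and a fitted fold of 4.20 (log2 fold change 2.07, SE 0.35, edgeR adjusted p = 0.0200). The gene lies at chromosome 1, 128331590 to 128359664. Mcm3 was at 166, 178 and 151 CPM in SDLN and at 0.276, 58.6, 85.9 and 164 CPM in skin (log2 fold change -1.09, SE 1.21, edgeR adjusted p = 0.744). Mcm4 was at 327, 314 and 225 CPM in SDLN and at 289, 9.63, 218 and 75.2 CPM in skin (log2 fold change -0.97, SE 0.87, edgeR adjusted p = 0.668). The low library was skin 1 for Mcm3 and skin 2 for Mcm4, so the subunits were not low in the same library. Mcm2, Mcm5 and Mcm7 had log2 fold changes of 0.12, -0.42 and -0.53.

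Per kilobase of exon, which allows genes to be compared, Mcm6 was the lowest and Mcm4 the highest of the 6 subunits in every SDLN library. Mcm4 was at 62.6 to 91.2 CPM per kb there and Mcm6 at 7.12 to 8.82 CPM per kb. In skin the lowest subunit was Mcm3, Mcm4, Mcm7 and Mcm7 in skin 1 to 4, and the highest was Mcm4, Mcm6, Mcm4 and Mcm3. The highest level was 7.10 to 12.3 times the lowest in SDLN and 1095, 9.54, 3.12 and 6.04 times in skin 1 to 4. Skin 1 stood out through Mcm3, which had 3 counts there. Over the tissue means, Mcm6 ranked 13 of 48 members per kb in SDLN and 6 in skin.

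**Figure D4:**
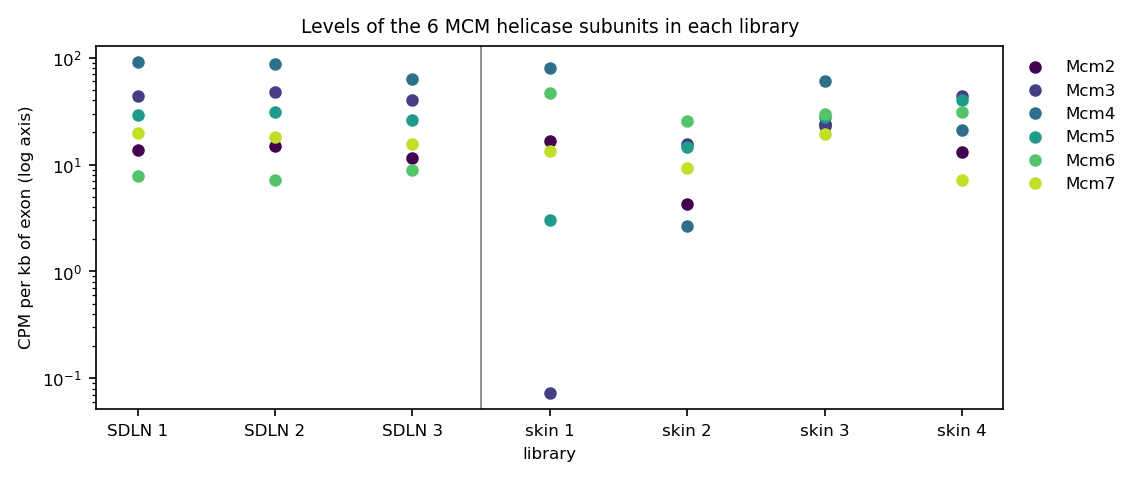
CPM per kilobase of exon (vertical log axis) of the 6 MCM helicase subunits in each library (horizontal axis). Mcm4 is on top and Mcm6 at the bottom in all SDLN libraries, while the order differs between the 4 skin libraries and Mcm3 falls to 0.0736 in skin 1.

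The enzymes of nucleotide supply did not pass. Rrm1, the large subunit of ribonucleotide reductase, was at 190.5, 166 and 172 CPM in SDLN and at 249.1, 0.404, 173 and 142 CPM in skin (log2 fold change -0.32, SE 1.22, edgeR adjusted p = 0.944). Its partner Rrm2 was at 41.4 to 65.0 CPM in SDLN and at 146, 31.1, 185 and 47.998 CPM in skin, so skin 2 kept Rrm2 counts where it had almost none of Rrm1. Thymidylate synthase Tyms (log2 fold change 0.09) and thymidine kinase Tk1 (1.09) did not pass, nor did the replication clamp Pcna (-0.07) or the helicase activator Cdc45 (0.08). Pcna was the most even of the class in skin, at 42.0 to 68.6 CPM in SDLN and 39.0 to 56.5 CPM in skin. Cdc45 was at 16.1 to 23.1 CPM in SDLN and at 0.276, 0.404, 47.5 and 36.1 CPM in skin, low in skin 1 and skin 2. Tk1 was at 12.4 to 17.9 CPM in SDLN and at 35.0, 1.86, 13.2 and 77.5 CPM in skin. The median log2 fold change of the 14 replication genes was 0.00, with 7 fitted above 0 and 7 below. Skin 2 had 12 of the 14 below the SDLN range (85.7%), and skin 1, 3 and 4 had 6, 2 and 4 (42.9%, 14.3% and 28.6%). Of all genes tested, 54.2%, 53.4%, 44.6% and 47.1% were below it in skin 1 to 4.

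None of the 9 genes of G1 and G1/S passed edgeR's test, beside 7.24% of all genes. At an unadjusted p under 0.05, 1 was higher and 0 lower, against 10% and 8.52% of all genes. DESeq2 called 1 of them (Cdk6) higher, against 8.11% of all genes, and limma-voom called 0. Ccnd2, a D-type cyclin that growth signals induce, was the most abundant member in both tissues, also per kb. It was at 2158, 2145 and 1764 CPM in SDLN and 2123, 2133, 1311 and 1514 CPM in skin (log2 fold change -0.19, SE 0.24, edgeR adjusted p = 0.786). Its kinase Cdk4 came next per kb in both tissues, at 284, 247 and 304 CPM in SDLN and 148, 104, 260.01 and 116 CPM in skin (log2 fold change -0.82, SE 0.36, edgeR adjusted p = 0.269). Cdk4 overlapped between the tissues only through skin 3, and without skin 3 it passed as lower in skin (adjusted p = 0.0330, log2 fold change -1.18). Cdk6, the related kinase, was at 3.05, 6.14 and 3.78 CPM in SDLN and at 25.9, 13.1, 32.6 and 28.5 CPM in skin, without overlap (log2 fold change 2.53, SE 0.89, edgeR adjusted p = 0.161). Cdk2, the cyclin E partner, did not overlap either, at 36.5 to 44.3 CPM in SDLN and 50.8 to 73.4 CPM in skin (log2 fold change 0.76, SE 0.40, edgeR adjusted p = 0.384).

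The E2F activators were uneven between skin libraries. E2f2 was at 55.2, 72.7 and 48.8 CPM in SDLN and at 183, 52.3, 56.8 and 34.7 CPM in skin (log2 fold change 0.47, SE 0.62, edgeR adjusted p = 0.793), high in skin 1 alone. E2f1 was at 2.69 to 4.32 CPM in SDLN and at 47.9, 13.5, 2.20 and 22.0 CPM in skin (log2 fold change 2.61, SE 1.22, edgeR adjusted p = 0.312). The cyclins Ccne1, Ccne2 and Ccnd3 had log2 fold changes of 0.57, 0.33 and 0.10.

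The 3 brakes had fitted values above 0, but none passed edgeR's test. At an unadjusted p under 0.05, 1 was higher, as were 10% of all genes. Cdkn1b, the Cdk inhibitor p27 that holds resting lymphocytes in G1, was at 76.9, 81.7 and 76.1 CPM in SDLN and at 170.4, 182, 166 and 135 CPM in skin. The tissues did not overlap, and the fitted fold of 2.08 just missed the threshold (log2 fold change 1.06, SE 0.27, edgeR adjusted p = 0.0540). DESeq2, limma-voom and the fit without skin 1 did call it. Cdkn2c, an inhibitor of Cdk4 and Cdk6, was at 5.09, 5.11 and 8.73 CPM in SDLN and at 70.4, 0, 27.9 and 17.8 CPM in skin (log2 fold change 2.20, SE 1.72, edgeR adjusted p = 0.606). Rb1 was at 38.9, 45.7 and 37.1 CPM in SDLN and at 57.3, 36.8, 76.6 and 77.3 CPM in skin (log2 fold change 0.61, SE 0.45, edgeR adjusted p = 0.572). Skin 2 was the low library for both.

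Of 169 other genes of the pathway, in 5 lists, 159 were tested, of which 5 rose and 4 fell, or 5.66%, beside the 7.24% of all genes. Of the 159, 1, 2 and 2 genes passed without SDLN 1, SDLN 2 and SDLN 3, namely Tob2 each time and Slfn2 without SDLN 2 or SDLN 3. With the replicate block 0 passed. Without skin 1, 8 were higher and 7 lower, without skin 3, 5 and 5, and without skin 4, 5 and 7. DESeq2 called 20, with 12 higher and 8 lower, against 8.11% and 4.46% of all genes. Among 27 tested G1 kinases, inhibitors and degradation genes, 1 rose and 0 fell (3.70%). It was Cdkn1a, the Cdk inhibitor p21, at 0.746, 0.552 and 1.47 CPM in SDLN and at 21.5, 68.8, 90.3 and 99.3 CPM in skin (log2 fold change 6.23, SE 0.88, edgeR adjusted p = 0.0115). Of 18 transcription factors and pocket proteins, 1 rose and 0 fell (5.56%). It was Rbl2, the Rb relative p130 of quiescent cells, at 79.2, 98.5 and 70.7 CPM in SDLN and 151, 310.2, 325 and 231 CPM in skin (log2 fold change 1.62, SE 0.34, edgeR adjusted p = 0.0380). At an unadjusted p under 0.05, 1 gene of each of these lists was lower. DESeq2 called 0 genes of the first and 1 of the second as lower, and limma-voom 1 of each. Over all genes, 8.52% were lower at that unadjusted p, 4.46% with DESeq2 and 6.41% with limma-voom.

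Of 12 tested quiescence and antiproliferative genes, 2 rose and 1 fell, or 25%, beside 7.24% of all genes. Tob2, of the antiproliferative Tob family, was at 36.0, 34.5 and 39.8 CPM in SDLN and 212, 273, 212 and 256 CPM in skin (log2 fold change 2.70, SE 0.28, edgeR adjusted p = 0.00377). Btg1, of the same family, was at 150.3, 160 and 187 CPM in SDLN and 277, 585, 380 and 524 CPM in skin (log2 fold change 1.41, SE 0.31, edgeR adjusted p = 0.0382). Both genes were higher in all 4 skin libraries than in any SDLN library. Btg1 did not pass without skin 2 (adjusted p = 0.0551), without skin 4 (0.0766), without the low-count filter (0.0948) or with genes averaging 5 CPM (0.0519). Slfn2, which T cells need to stay quiescent, fell, from 1179, 1027 and 1477 CPM in SDLN to 289, 409, 273 and 265 CPM in skin (log2 fold change -1.99, SE 0.25, edgeR adjusted p = 0.00776). So the called genes of this list did not move in 1 direction.

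**Figure D5:**
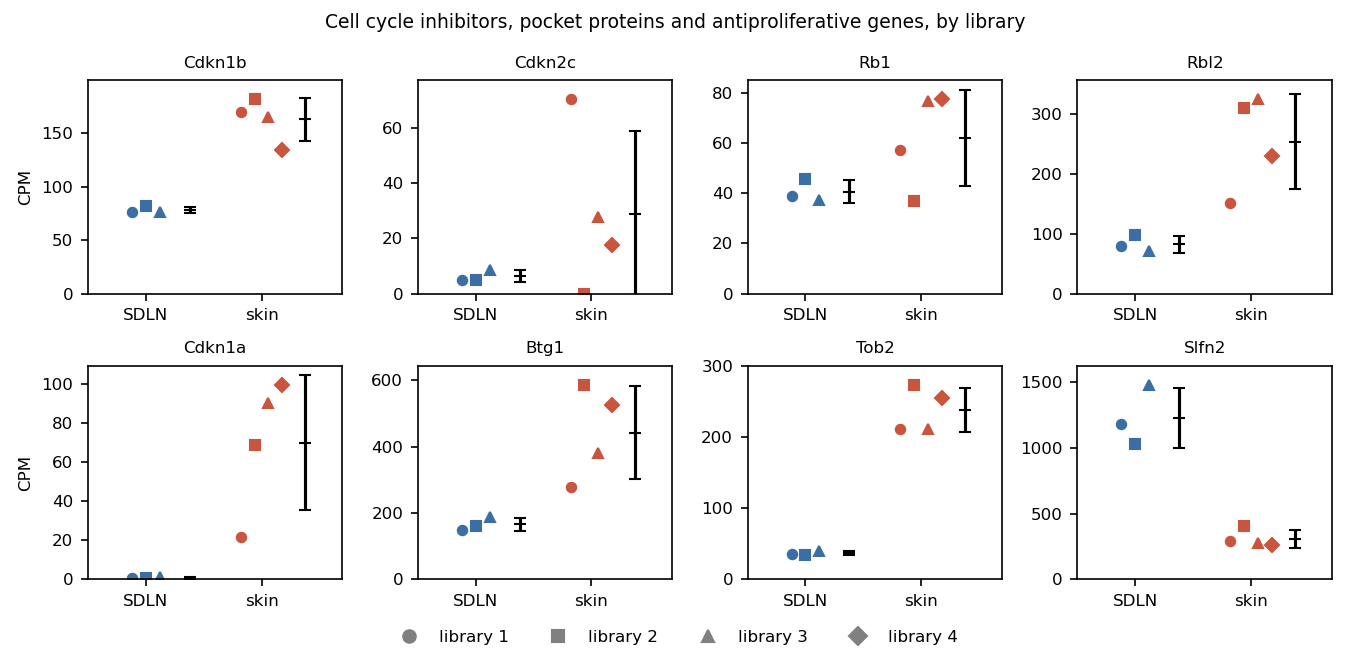
CPM (vertical axes, each from 0) of 8 inhibitors, pocket proteins and antiproliferative genes by tissue; symbols are libraries numbered within each tissue, bars are mean ± SD, and the lower bar of Cdkn2c is cut at 0. Cdkn1b, Rbl2, Cdkn1a, Btg1 and Tob2 are higher in all skin libraries, Slfn2 is lower in all, and Cdkn2c and Rb1 overlap.

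Of 58 tested genes of kinetochore, spindle and chromosome condensation, 1 rose and 2 fell, or 5.17%, beside 7.24% of all genes. At an unadjusted p under 0.05, 6 were higher and 4 lower, and DESeq2 called 4 higher and 3 lower. Over all genes, 10% were higher and 8.52% lower at that unadjusted p. DESeq2 called 8.11% of all genes higher and 4.46% lower, and limma-voom 2.38% and 6.41%. Beside Kif23, which rose, Smc4, a condensin subunit that compacts chromosomes, fell, from 1173, 1350.5 and 1088 CPM in SDLN to 505, 278, 340.2 and 452 CPM in skin (log2 fold change -1.61, SE 0.26, edgeR adjusted p = 0.0176). Cdca5, the cohesin regulator sororin, was called lower, and had 194 counts over the SDLN libraries and 1 over skin, 224 times as much per CPM in SDLN (95% interval from counting 39.6 to 8874, adjusted p = 0.0380). Of 44 origin and fork genes, 0 were called higher and 1 lower, or 2.27%. At an unadjusted p under 0.05, 1 of them was higher and 3 lower. DESeq2 called 1 higher and 2 lower, and limma-voom 0 higher and 2 lower. The gene called lower was Mcm8. Mcm8, a helicase of homologous recombination, had 166 counts in SDLN and 1 in skin, 191 times as much per CPM in SDLN (interval 33.9 to 7599, adjusted p = 0.0380). Both genes were kept for testing by their SDLN counts alone, and without the low-count filter neither passed (adjusted p = 0.152 for each). The median log2 fold change was 0.12 over the origin and fork list and 0.80 over the kinetochore and spindle list, against 0.05 over all genes.

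Members without a count in some skin library were mostly of low level. They numbered 18 of 48 (37.5%, against 29.5% of all genes tested), 14 of them mitotic, and their median SDLN level was 6.83 CPM, against 40.0 CPM for the other 30. In skin 1 and skin 2, 25.0% of members had no count, beside 19.5% and 17.7% of all genes tested. In skin 3 and skin 4 the share was 2.08%, beside 7.59% and 10.1%. Of the 48 members, 30 were above the SDLN range in some skin libraries and below it in others. That share was not counted over all genes tested, so it is not shown to be a trait of the members. Of all genes tested, 35.1% to 41.3% were above that range and 44.6% to 54.2% below it in a skin library. By contrast, 8 members were above it in all 4 skin libraries, as were 10.1% of all genes tested. They were Mcm6, Cdt1, Top2a, Racgap1, Cenpf, Cdk2, Cdk6 and Cdkn1b.

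When SDLN 1, SDLN 2 or SDLN 3 was left out, none of the 4 members that rose passed, with fitted log2 fold changes near those above. Nor did Kif23, Smc4, Cdca5, Mcm8, Rbl2, Cdkn1a or Btg1 pass in any of these 3 fits. Over these fits Mcm6 had 1.99 to 2.14, Cdt1 2.58 to 2.66, Top2a 1.36 to 1.47 and Racgap1 2.71 to 2.95. The range of adjusted p over all alternatives was 7.43e-05 to 0.358 for Cdt1, 2.16e-07 to 0.198 for Mcm6, 1.74e-04 to 0.356 for Top2a and 5.43e-08 to 0.302 for Racgap1.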

How the data were processed

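Messenger RNA was sequenced in 3 SDLN and 4 skin libraries of sorted Tregs, from SMARTer Ultra Low Input cDNA per the labels' protocols. The authors deposited whole-number counts of reads for each gene symbol, not normalized. Per the submitters' processing notes the tools were HTSeq 0.6.1, SAMtools 0.1.19.0, Bowtie2 2.1.0.0, TopHat2 2.0.12 and CASAVA 1.8.2, with build mm10. Annotation, filters and strand setting: not given in the sources used here. The 5 summary lines were left out; alignments to several places made up 61.2% to 70.4% of the table and reads outside genes 10.0% to 17.1%. Ccnb1, Ccnb2, Ccnd3, Pcna and Tyms have named pseudogenes, and 18 members share exon bases with another gene, so their counts are uncertain. Among the 18 are Top2a, Ccnd2, Cdk2, Cdk4, Cdk6, Cdc45, Mcm7, Plk1 and Rb1.

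Genes were kept by filterByExpr (minimum count 10) in edgeR 4.0.16 (R 4.3.3), scaled by TMM and tested by the robust quasi-likelihood test, tissue as sole term, two-sided, with Benjamini-Hochberg adjustment over all 11376 genes; the script was tested on simulated counts. The SE is the log2 fold change over the root of F. CPM use TMM-scaled library sizes; lengths are union exons of GENCODE vM21. No 2 libraries of a tissue agree within sampling noise (chi-square per gene at least 13.2). Intervals and floors cover counting error alone. The members, classes and lists were chosen with earlier results of these data known. Every member could be named. Values per library were given for members called, for members without overlap and for the 3 of highest mean CPM in each class. Other members were shown as examples chosen after their values were seen. Of each other list up to 4 called genes were named. Markers of CD8 T and NK cells summed to 152 to 222 CPM in SDLN and 141 to 340 CPM in skin. Those of mast cells summed to 6.64 to 12.6 and 0 to 26.2 CPM, and those of melanocytes to 19.5 to 23.9 and 0 to 20.5 CPM. Those of B cells summed to 79.1 to 102 and 2.99 to 38.4 CPM, without overlap. Those of endothelial cells summed to 388 to 548 and 16.2 to 73.4 CPM, also without overlap. In SDLN the endothelial sum was nearly all Pecam1 (548, 528 and 388 CPM), with Cdh5, Kdr and Vwf at 0 and Emcn at most at 0.0690 CPM. The melanocyte sum of SDLN was nearly all Pmel (20.0, 23.7 and 19.5 CPM). Alternatives were scaling by RLE, by upper quartile or by totals alone, testing every gene or genes averaging 5 CPM, limma-voom (limma 3.58.1), DESeq2 1.42.0, fitting without robustness, a replicate block, an adjusted p under 0.01 and each library left out.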

Additional observations from a re-analysis of the deposited data

Results flagged for a closer look

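In 14 of 71 measures looked at, 1 of the 4 skin libraries stood apart from the others by Dixon's test at 95%. Its rate of about 1 in 20 by chance is for normally distributed values, and low counts with zeros are not such values. The 14 of 71 therefore cannot be set against that rate. A gene with counts in 1 skin library alone always stands apart, as did Cdc6, Cdca5 and Mcm8. In skin 4, Aurkb was at 26.0 CPM (at most 0.0881 in the others), Bub1b at 41.2 CPM (at most 0.529) and Cdk1 at 18.8 CPM (at most 1.15), and markers of macrophages, monocytes and dendritic cells summed to 952 CPM (164 to 266). In skin 3, Cdc6 was at 10.4 CPM (0 in the others), keratinocyte markers summed to 1361 CPM (at most 20.7) and fibroblast markers to 2010 CPM (at most 8.93). In skin 1, Ccnb1 was at 10.3 CPM (at most 1.71), E2f2 at 183 CPM (34.7 to 56.8) and Cdca5 at 0.0920 CPM, which is 1 count (0 in the others). In skin 2, Cenpf was at 76.9 CPM (15.6 to 22.5), Cdk2 at 50.8 CPM (70.5 to 73.4) and Slfn2 at 409 CPM (265 to 289). Mcm8 was at 0.0713 CPM, which is 1 count, in skin 4 (0 in the others).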

How the results depend on the processing

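The number of members higher in skin, 4, was 1 without the low-count filter, 8 with DESeq2 and 0 at an adjusted p under 0.01. Leaving out 1 library gave 0 to 6 members higher and 0 to 2 lower. The 0 came without SDLN 1, SDLN 2 or SDLN 3, where all genes called fell from 824 to 48, 43 and 76. Without skin 4, 2 members were higher (Mcm6 and Racgap1) and 1 lower (Aurkb), and without skin 3, 2 were lower (Cdc6 and Cdk4). Over all genes, DESeq2 called 1430, and 258 were called without the filter and 386 with a mean of at least 5 CPM. With a replicate block, on 6 or 7 libraries, 0 members were higher and 0 lower, and 42 and 56 genes were called in all. The numbers share no stated animal, and deviations of same-numbered libraries correlated at -0.0401 to 0.0672, so they were not taken as pairs. SDLN 3 had 3877 counts of the Y-linked gene Ddx3y and skin 3 had 2, so the block joins libraries that differ in sex. On 6 libraries the replicate block gave medians of -0.45 for the mitotic and -0.52 for the replication class, beside -0.55 for all genes, so the 1.24 between the classes fell to 0.07. Medians under 5 further settings were added after seeing the data. On 7 libraries the block gave -0.41 and -0.50, 0.08 apart, and limma-voom gave -0.11 and -0.41, 0.30 apart, beside -0.62 for all genes. The causes were not tested. Under the other alternatives run for it, the mitotic median lay at 1.06 to 1.44 and its distance from the replication median at 1.07 to 1.64. The log2 ratio of the mitotic sums lay at 1.31 (per kb) to 1.77, and that of the replication sums at -0.26 to 0.09. Depth alone limits genes under 0.276 CPM in a skin library, and losses before sequencing were not tested.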
